A study of Homo sapiens with 2 samples.

Results

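Histones are the proteins that package DNA into nucleosomes, and 74 genes for them were listed in RNA sequencing of A549, a cell line from a human lung adenocarcinoma, out of 23024 genes listed in all. They were taken by symbol (HIST1H, HIST2H, HIST3H, HIST4H, H1F, H2AF or H3F at the start and no hyphen). That rule reads no values, but it was chosen with earlier results of these data known. The study compared cells stably transduced with a retrovirus carrying ATOH8, a basic helix-loop-helix transcription factor, with cells stably transduced with the retroviral vector alone. Each group was 1 library of total RNA from A549 cells in DMEM with serum, so every difference below is between 2 libraries, has no error from replicates and no p-value. Values are FPKM, fragments per kilobase of transcript scaled to the fragments mapped in the library, as the authors deposited them. Of the 74 genes, 60 were listed in both libraries, 2 in the ATOH8 library only and 12 in the vector library only. A gene that a file does not list was not read as 0.

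Histone genes fall into 2 kinds. Replication-dependent genes, the HIST symbols, sit in clusters, are transcribed mainly in S phase to package newly copied DNA, and end their mRNA in a short stem-loop in place of a poly(A) tail. Variant genes, the H1F, H2AF and H3F symbols, are transcribed outside S phase too, end in a poly(A) tail and encode replacement histones such as H2A.Z, macroH2A and the linker histone H1X. Some replication-dependent genes are also known to give polyadenylated transcripts. The submitters' text does not say whether poly(A) RNA was selected or ribosomal RNA removed, and the part of this choice in the levels was not tested.

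The 3′ stem-loop was read from the GENCODE 29 transcripts to show the feature that separates the kinds. It is given here with 5 bases on each side, and capitals mark the 16 bases of stem and loop.
HIST2H2BE: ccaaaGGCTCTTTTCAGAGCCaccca
HIST1H2BD: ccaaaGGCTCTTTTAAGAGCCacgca
HIST2H4A: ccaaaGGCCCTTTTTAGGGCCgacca
HIST1H3E: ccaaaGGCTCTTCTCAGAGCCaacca
H2AFX: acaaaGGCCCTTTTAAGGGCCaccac
The form in HIST2H2BE was the most frequent and stood in 16 of the genes with an annotated stem-loop. HIST1H2BD shared its form with 5 genes in all and HIST2H4A with 3. Among variant genes a stem-loop was found in H2AFX alone, whose annotated transcripts run 1044 bases beyond it. H2AFX encodes H2A.X, the H2A form phosphorylated at DNA breaks, and is known to give both kinds of mRNA end.

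The promoters of the genes on which the comparison turns are shown next, to set them beside elements known from histone promoters. Each runs from 250 bases before to 50 bases after the RefSeq start (GRCh38.p14, minus strand). Capitals mark 4 elements on either strand. The first is the CCAAT box, which reads ATTGG on the other strand. The second is the TATA box in the form TATAAA, which reads TTTATA there. The others are the octamer ATTTGCAT, which reads ATGCAAAT there, and the cell cycle element TTTGAA, which reads TTCAAA there. Overlapping matches share their capitals.
H2AFZ, chr4:99950226-99950525: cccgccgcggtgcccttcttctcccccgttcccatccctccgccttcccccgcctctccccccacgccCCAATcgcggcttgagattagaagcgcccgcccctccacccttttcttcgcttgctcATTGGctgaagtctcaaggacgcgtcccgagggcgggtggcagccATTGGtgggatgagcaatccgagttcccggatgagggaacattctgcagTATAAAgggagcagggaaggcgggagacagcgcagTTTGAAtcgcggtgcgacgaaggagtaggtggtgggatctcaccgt
H2AFV, chr7:44848038-44848337: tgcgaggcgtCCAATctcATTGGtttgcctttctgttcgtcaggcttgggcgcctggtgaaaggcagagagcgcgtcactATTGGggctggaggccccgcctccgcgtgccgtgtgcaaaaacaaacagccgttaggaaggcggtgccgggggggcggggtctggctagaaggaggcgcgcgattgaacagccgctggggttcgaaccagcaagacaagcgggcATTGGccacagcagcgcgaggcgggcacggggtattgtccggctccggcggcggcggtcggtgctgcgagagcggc
H1FX, chr3:129316237-129316536: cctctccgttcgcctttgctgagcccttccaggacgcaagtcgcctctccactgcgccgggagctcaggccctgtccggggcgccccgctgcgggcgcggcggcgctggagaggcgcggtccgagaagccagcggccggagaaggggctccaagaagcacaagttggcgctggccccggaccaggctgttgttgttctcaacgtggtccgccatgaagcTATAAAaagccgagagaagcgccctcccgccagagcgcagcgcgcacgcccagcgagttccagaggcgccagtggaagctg
HIST1H2BK, chr6:27146809-27147108: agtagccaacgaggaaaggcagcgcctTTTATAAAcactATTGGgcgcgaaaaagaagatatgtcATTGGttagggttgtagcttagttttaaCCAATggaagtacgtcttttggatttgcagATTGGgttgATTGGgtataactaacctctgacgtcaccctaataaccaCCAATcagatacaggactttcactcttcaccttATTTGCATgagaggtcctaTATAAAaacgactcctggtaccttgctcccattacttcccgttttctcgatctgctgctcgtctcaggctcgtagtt
HIST2H2BE, chr1:149886633-149886932: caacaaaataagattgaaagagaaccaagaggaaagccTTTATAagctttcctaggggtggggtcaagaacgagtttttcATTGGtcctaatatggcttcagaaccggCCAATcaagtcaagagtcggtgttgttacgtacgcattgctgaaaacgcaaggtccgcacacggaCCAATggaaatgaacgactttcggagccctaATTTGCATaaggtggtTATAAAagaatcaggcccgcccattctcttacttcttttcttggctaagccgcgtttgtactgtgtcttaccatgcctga
H2AFZ held 3 CCAAT matches, 1 TATA match and 1 match to the cell cycle element, and H2AFV held 4 CCAAT matches and none of the other 3 elements. HIST1H2BK and HIST2H2BE, which differed in opposite directions between the libraries, both held the octamer, with 6 and 3 CCAAT matches and 3 and 2 TATA matches. H1FX held 1 TATA match only.

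Over all histone genes with a RefSeq promoter (58 of 74, the first listed start of each), CCAAT stood in 38 of 46 replication-dependent and 9 of 12 variant promoters, against 35.7% of 27305 promoters. TATAAA stood in 30 of 46 and 4 of 12, against 12.0%. The octamer, known for its role in H2B transcription, stood in 6 of 10 H2B promoters and 8 of 36 other replication-dependent promoters, against 1.80%. The cell cycle element stood in 15 of 46 replication-dependent and 2 of 12 variant promoters, against 15.4%. The E2F site (spelled TTTGGCGC and also as TTTCCCGC, while TTTCGCGC was counted too, as was TTTGCCGC, each on either strand) stood in 14 of 46 replication-dependent and 0 of 12 variant promoters, against 3.33%. The E-box CANNTG, the core recognised by basic helix-loop-helix factors, stood in 32 of 46 replication-dependent promoters and 5 of 12 variant promoters, against 68.9%. A match is a description of the letters and not a bound site.

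The libraries were checked first. The ATOH8 file listed 20870 genes and the vector file 20966, and the ATOH8 gene stood at 182 FPKM in the library labelled ATOH8, against 0.786 FPKM under vector, as the labels place it. The keratin genes KRT8 (2302 FPKM in ATOH8 and 2381 in vector) and KRT18 (2012 in ATOH8 and 2486 in vector) marked epithelial cells. EPCAM was at 2.23 FPKM in ATOH8 and 1.70 in vector, CDH1 at 54.1 FPKM in ATOH8 and 15.4 in vector, and KRT19 near 0 at 0.0700 FPKM in ATOH8 and 0.219 in vector. PTPRC, PECAM1 and COL3A1, of leukocytes, endothelium and fibroblasts, were listed in the ATOH8 file only and at no more than 0.0566 FPKM. In such bulk RNA, fewer cells transcribing a gene and less RNA per cell cannot be told apart. Because the sources used here give no sequencing depth, the FPKM carry no counting interval, and low values in particular are of unknown precision. The smallest listed value, 6.25e-07 FPKM, shows that the values are not whole multiples of a read.

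Most of the histone FPKM in both libraries stood in variant genes. Summed over the 60 genes in both files, variant genes gave 830 FPKM in the ATOH8 library, against 1204 FPKM in the vector library, which was 90.9% of all histone FPKM in ATOH8 and 92.3% in vector. Replication-dependent genes summed to 82.7 FPKM in ATOH8 and 99.8 FPKM in vector over 47 genes. FPKM are per length, but if poly(A) RNA was selected, stem-loop mRNA would be counted less fully than polyadenylated mRNA, so levels of the 2 kinds are set side by side as measured only. The 10 protein-coding variant genes with a mean of at least 1 FPKM spanned 14.4 to 189.7 FPKM in ATOH8 (median 65.7) and 21.0 to 290.2 FPKM in vector (median 80.4). Of the 47 replication-dependent genes, 3 had a mean of at least 10 FPKM, 17 of at least 1 FPKM and 30 lay below 1 FPKM.

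**Figure D1:**
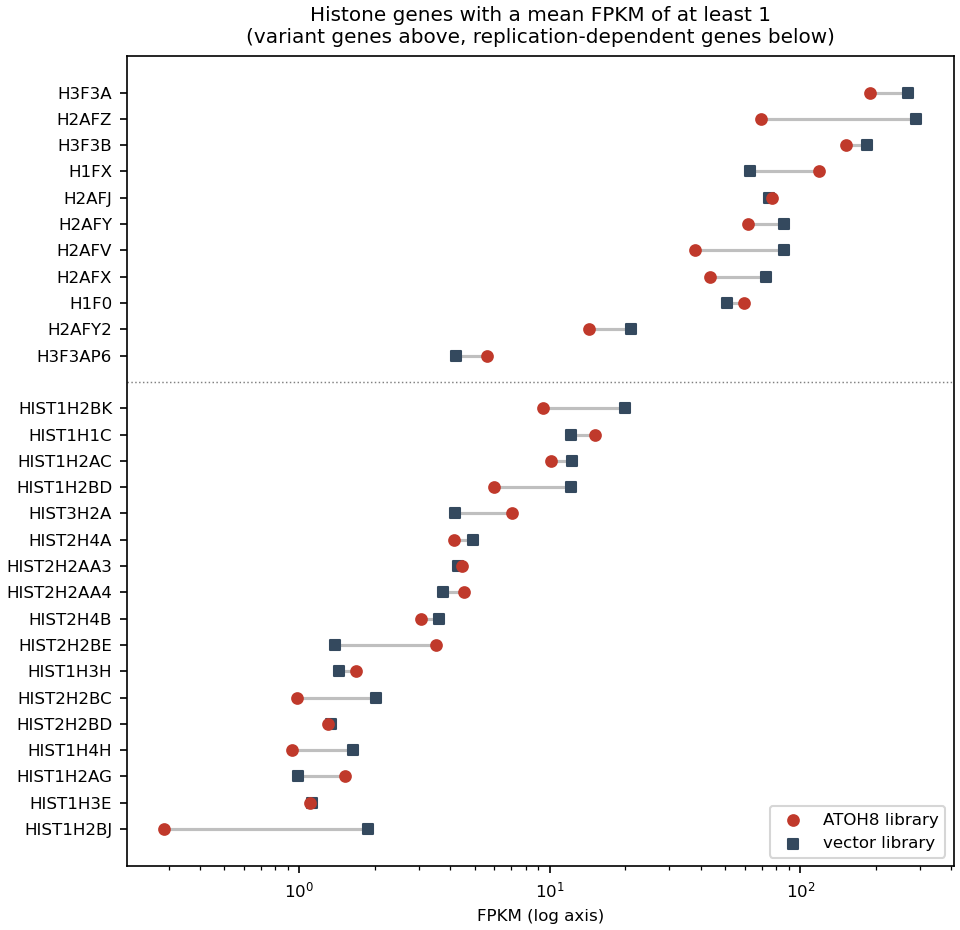
FPKM in the ATOH8 library (circles) and the vector library (squares) on a log axis for the 28 histone genes whose mean reached 1 FPKM, with 1 library per group. Protein-coding variant genes lie above 14 FPKM in both libraries and replication-dependent genes below 20 FPKM, and the widest gap among abundant genes is that of H2AFZ, at 69.5 FPKM in ATOH8 and 290.2 FPKM in vector.

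For the comparison, a log2 fold was computed as log2(ATOH8 FPKM + 1) minus log2(vector FPKM + 1) for the 12342 genes with a mean of at least 1 FPKM. This scale understates the change of low genes. Genes whose mean reached 5 FPKM had a median log2 fold of -0.36, so folds are given relative to that median gene, and as deposited where the difference matters. A fold called as deposited keeps the added 1 and is only not set against the median gene. A gene is called higher or lower from 2-fold. Of the 28 histone genes that passed the filter, 3 stood 2-fold or more above the median gene in the ATOH8 library (10.7%) and 1 stood 2-fold or more below it (3.57%). Among all tested genes these shares were 12.8% and 9.46%, and the median histone gene was at 0.17. With the fold as deposited, 0 passed 2-fold upward and 4 downward (H2AFZ, HIST1H2BJ, H2AFV and HIST1H2BK), against 6.24% and 19% of all genes. In the plain ratio of ATOH8 to vector FPKM, with nothing added, HIST2H2BE (2.54) also passed upward. HIST1H2BD (0.492) and HIST2H2BC (0.482) also passed downward in it, and no share over all genes is given for that ratio. After subtracting the trend of folds with transcript GC content, called the GC correction below, 1 of 27 passed upward (HIST2H2BE, 3.70%) and 3 downward (H2AFZ, HIST1H2BK and H2AFX, 11.1%), against 8.33% and 5.96% of all genes. The 17 replication-dependent genes had a median of 0.34 (-0.02 as deposited and 0.16 after the GC correction), with 2 higher and 0 lower. The 11 variant genes had a median of -0.11 (-0.47 as deposited and 0.08 after the GC correction), with 1 higher and 1 lower. Of the 28, the authors' deposited table marked H2AFZ, H2AFV and HIST1H2BJ down and 0 up, against 14.7% marked down and 5.16% marked up among the tested genes. Its q-values speak of these 2 libraries, not of the conditions.

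**Figure D2:**
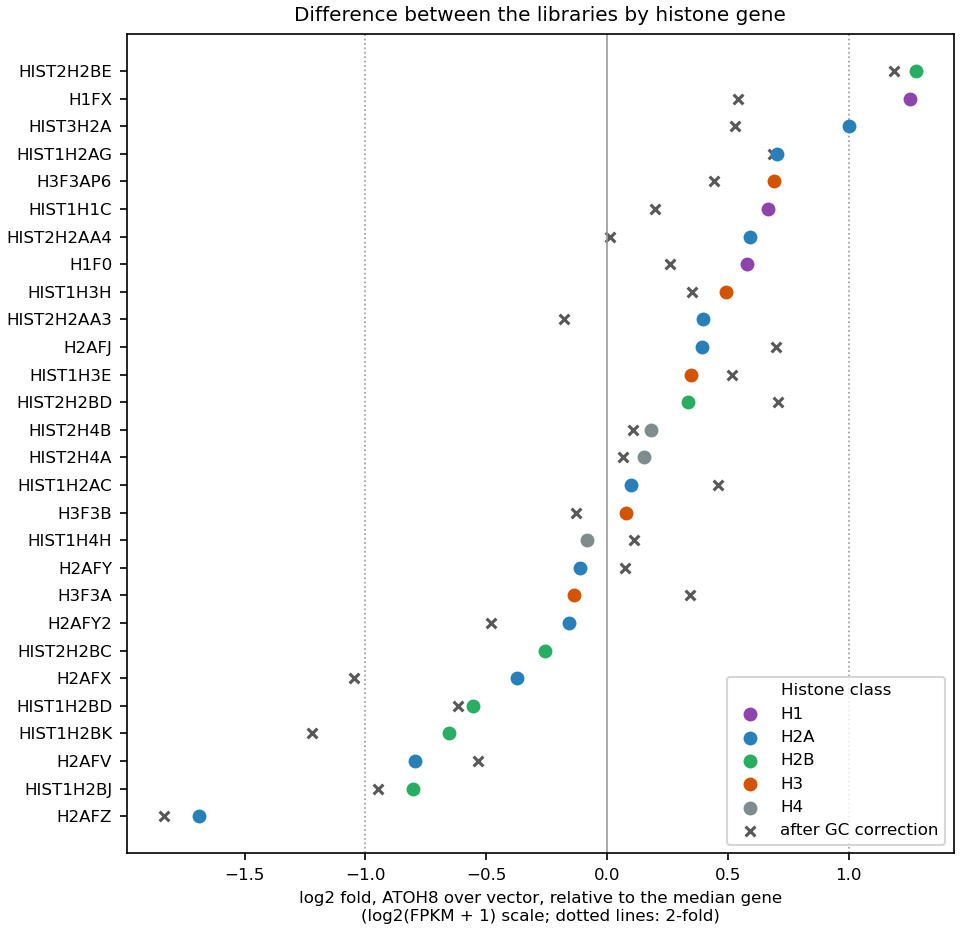
Log2 fold of ATOH8 over vector relative to the median gene for 28 histone genes, coloured by histone class, with the value after a GC correction as a cross where base composition was known. H2AFZ stands apart at the low end (-1.69), and HIST2H2BE (1.28) and H1FX (1.25) lead the high end, where the correction moves H1FX to 0.54.

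Linker histones bind the DNA between nucleosomes and compact the fibre. H1FX, which encodes H1X, was at 118 FPKM in the ATOH8 library, against 63.2 FPKM in the vector library. H1F0, which encodes the linker histone known to accumulate in differentiated and non-dividing cells, was at 59.7 FPKM in ATOH8 and 51.1 FPKM in vector. HIST1H1C, a replication-dependent linker gene, was at 15.2 FPKM in ATOH8 and 12.1 FPKM in vector. Each of these 3 was higher in the ATOH8 library as deposited as well as relative to the median gene, at 1.25, 0.58 and 0.66 relative, and H1FX was the one past 2-fold, as it was in 4 of the 6 alternative settings that can move the fold of a single gene (0.89 as deposited). HIST1H1D stood at 0.160 FPKM in ATOH8 and 0.307 FPKM in vector, and HIST1H1E at 0.0813 FPKM in ATOH8 and 0.289 in vector, so the replication-dependent linker genes did not share a direction. Summed linker mRNA was 193 FPKM in ATOH8 and 127 FPKM in vector, which was 21.2% of all histone FPKM in ATOH8 and 9.74% in vector. The H1FX transcript is GC-rich (68.6% GC), and folds followed base composition in these libraries: the median relative log2 fold was -0.70 in the tenth of genes with the lowest GC content and 0.63 in the tenth with the highest. After the GC correction H1FX stood at 0.54, H1F0 at 0.26 and HIST1H1C at 0.20, none past 2-fold. The antisense gene H1FX-AS1, which shares the locus, was at 0.129 FPKM in ATOH8 and 0.0348 FPKM in vector.

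The H2A class held the widest difference. H2AFZ, which encodes H2A.Z, the H2A variant placed at promoters beside transcription start sites, was at 69.5 FPKM in the ATOH8 library, against 290.2 FPKM in the vector library. It had the highest FPKM of the histone genes in the vector library and stood below H3F3A, H3F3B, H1FX and H2AFJ in the ATOH8 library. Its relative log2 fold was -1.69, and -1.83 after the GC correction. The gene (ENSG00000164032, chromosome 4, 99948086 to 99950388, minus strand, GRCh38) was the only histone gene at least 2-fold lower relative to the median gene, and it was so under each of the 6 alternative settings that can move the fold of a single gene (-2.05 to -1.67). The locus string in the files runs over DDIT4L and other neighbours, so reads could have been assigned across them, and the part of this was not tested. The authors' deposited table gave it a q-value of 0.00661.

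H2AFV encodes the other H2A.Z protein, from a coding sequence 80.5% identical to that of H2AFZ. It was at 38.0 FPKM in ATOH8 and 85.7 FPKM in vector, at -0.79 relative, -1.15 as deposited and -0.53 after the GC correction. Its locus holds no other annotated gene, and the authors' deposited table marked it down with a q-value of 0.0497. Together the H2A.Z genes made 107 FPKM in ATOH8 and 376 FPKM in vector. Their share of the summed H2A FPKM, with poly(A) selection unknown as above, was 32.2% in the ATOH8 library, against 57.1% in that with vector.

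The other variant H2A genes lay within 2-fold of the median gene before the GC correction. H2AFX was at 43.6 FPKM in ATOH8 and 73.1 FPKM in vector (-0.37 relative), and with a transcript of 66.4% GC it moved to -1.05 after the GC correction. H2AFY and H2AFY2 encode macroH2A proteins, which carry a large non-histone domain and mark silent chromatin. H2AFY was at 61.9 FPKM in ATOH8 and 86.1 FPKM in vector (-0.11), and H2AFY2 at 14.4 FPKM in ATOH8 and 21.0 in vector (-0.16). H2AFJ, whose protein has been linked to senescent cells, was at 76.95 FPKM in ATOH8 and 75.2 FPKM in vector (0.39 relative, 0.03 as deposited, 0.70 after the GC correction). At nearly equal FPKM it made 23.1% of H2A FPKM in ATOH8 and 11.4% in vector. The loci given for H2AFY, H2AFY2, H3F3A, H3F3B, H3F3AP6, HIST1H2BD, HIST2H4A and HIST2H4B span 1 to 8 other annotated genes, and the part of this in their values was not tested.

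**Figure D3:**
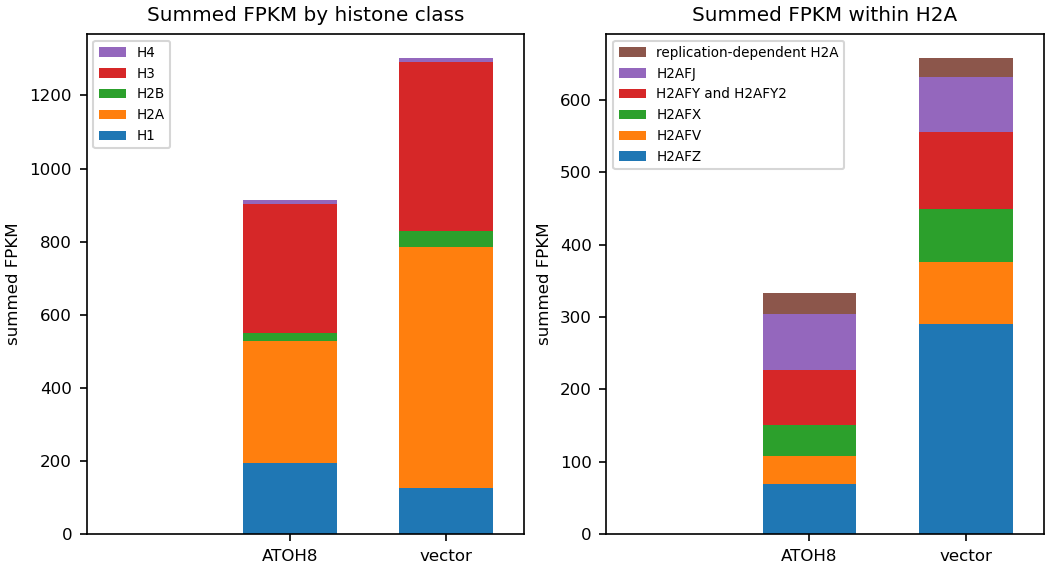
Summed FPKM of the 60 histone genes in both files by histone class (left) and of the H2A genes by variant (right), with the ATOH8 library to the left of the vector library in each panel. H2A summed to 334 FPKM in ATOH8 and 659 FPKM in vector, and H2AFZ, the lowest block on the right, made 69.5 of these in ATOH8 and 290.2 in vector.

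Among replication-dependent H2A genes, HIST1H2AC was at 10.06 FPKM in ATOH8 and 12.3 FPKM in vector (0.10). HIST3H2A was at 7.05 FPKM in ATOH8 and 4.16 FPKM in vector and lay on the 2-fold line at 1.00, and of the 6 alternative settings that can move the fold of a single gene, 1 kept its call (a pseudocount of 0.1, 1.13) and the others gave 0.53 to 0.96. HIST1H2AG was at 1.52 FPKM in ATOH8 and 0.989 FPKM in vector (0.70). HIST2H2AA3 (4.45 FPKM in ATOH8 and 4.31 in vector) and HIST2H2AA4 (4.55 in ATOH8 and 3.73 in vector) have identical coding sequences of 390 bases, so the split of reads between them is uncertain. These 5 lay above the median gene, whereas HIST1H2AC was lower as deposited (-0.26) and HIST2H2AA3 moved to -0.18 after the GC correction. The difference between them and the H2A.Z genes was not tested.

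H2B genes went both ways. HIST1H2BK, the most abundant of them, was at 9.36 FPKM in ATOH8 and 19.9 FPKM in vector (-0.66, and -1.22 after the GC correction). Its annotated transcript has 381 bases (61.2% GC), hardly more than its 378 coding bases. The corrected value therefore takes no account of a longer 3′ end. HIST1H2BD was at 5.998 FPKM in ATOH8 and 12.2 FPKM in vector (-0.55), and HIST1H2BJ at 0.289 FPKM in ATOH8 and 1.89 in vector (-0.80). HIST1H2BJ is low, and its log2 fold ran between -1.97 with a pseudocount of 0.1 and -0.10 with a pseudocount of 5. The authors' deposited table, without a pseudocount, gave it a log2 ratio of -2.71 with a q-value of 0.0299. HIST2H2BE (ENSG00000184678, chromosome 1, 149884459 to 149886652, minus strand, GRCh38) stood on the other side, at 3.51 FPKM in ATOH8 and 1.38 FPKM in vector. Its relative log2 fold of 1.28 was the highest of the 28 genes, and 1.19 after the GC correction. At these low FPKM the call held in 4 of the 6 alternatives that can move it. It did not hold for the fold as deposited, which keeps the added 1 (0.92), nor with a pseudocount of 5 (0.69). The plain ratio of its FPKM, ATOH8 over vector, was 2.54. HIST2H2BE and HIST1H2BK share 91.5% of their coding bases, so reads from coding sequence can be hard to place, whereas the annotated HIST2H2BE transcript runs 1729 bases past its stem-loop. HIST2H2BC, whose identifier is not in GENCODE 29, was at 0.976 FPKM in ATOH8 and 2.03 FPKM in vector (-0.26). Its RefSeq symbol, H2BC20P, is that of a pseudogene. The annotated pseudogene HIST2H2BD was at 1.30 FPKM in ATOH8 and 1.33 in vector (0.34). Summed H2B mRNA was 24.4 FPKM in ATOH8 and 42.7 FPKM in vector.

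Measured H3 FPKM stood almost wholly in the replacement genes, with poly(A) selection unknown as above. H3F3A was at 189.7 FPKM in the ATOH8 library, against 268 FPKM in the vector library (-0.14 relative, 0.34 after the GC correction), and H3F3B at 152 FPKM in ATOH8 and 185 in vector (0.08 and -0.13). Both encode the H3 that is placed outside replication, from coding sequences 78.4% identical, and both lay near the median gene. Together they gave 97.3% of H3 FPKM in ATOH8 and 98.0% in vector. The processed pseudogene H3F3AP6 was listed at 5.58 FPKM in ATOH8 and 4.24 FPKM in vector, and its sequence is identical to the H3F3A coding bases at 99.3% of aligned positions, so the split of reads between them is uncertain. H3F3AP4, at 0.580 FPKM in ATOH8 and 0.911 in vector, is identical at 100% of them. Among replication-dependent H3 genes, HIST1H3H was at 1.68 FPKM in ATOH8 and 1.44 FPKM in vector (0.49) and HIST1H3E at 1.11 FPKM in ATOH8 and 1.12 in vector (0.35), and all 9 together summed to 3.45 FPKM in ATOH8 and 4.17 FPKM in vector.

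H4 has no variant gene in this set. HIST2H4A was at 4.13 FPKM in ATOH8 and 4.92 FPKM in vector (0.15), and HIST2H4B, with an identical coding sequence of 309 bases, at 3.06 FPKM in ATOH8 and 3.59 in vector (0.18). HIST1H4H was at 0.935 FPKM in ATOH8 and 1.63 FPKM in vector (-0.08). Each of these 3 was lower as deposited and within 2-fold of the median gene. Summed H4 mRNA was 10.2 FPKM in ATOH8 and 13.0 FPKM in vector.

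By genomic cluster, 0 of the 9 measured HIST1 genes on chromosome 6 passed 2-fold in either direction relative to the median gene, against 12.8% higher and 9.46% lower among all genes, with a median of 0.10. With the fold as deposited 2 of the 9 passed downward (HIST1H2BJ and HIST1H2BK), against 19% of all genes, and after the GC correction 1 did (HIST1H2BK), against 5.96%. In the plain FPKM ratio, with nothing added, HIST1H2BD (0.492) passed downward too. Of the 7 HIST2 genes on chromosome 1, HIST2H2BE was higher (14.3%) and none was lower, against 12.8% and 9.46% of all genes. Their median was 0.34, but -0.02 as deposited and 0.09 after the GC correction. HIST2H2AA3 and HIST2H2AA4 have identical coding sequences, as do HIST2H4A and HIST2H4B, so the values within each pair are not separate. The difference between the clusters was not tested. A list of 8 replication-dependent genes described as also giving polyadenylated mRNA had 7 measured members. Of these, 1 was higher (14.3%) and 0 lower, against 12.8% and 9.46% of all genes, with a median of 0.10. With the fold as deposited 0 were higher and 1 lower, with a median of -0.26. In the plain FPKM ratio HIST2H2BE (2.54) passed upward and HIST1H2BD (0.492) downward as well. After the GC correction 1 was higher and 1 lower, with a median of 0.11. HIST1H2BC, the remaining member of that list, was at 0.414 FPKM in ATOH8 and 1.23 FPKM in vector.

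The 30 replication-dependent genes with a mean below 1 FPKM were not called. They spanned 0.0468 to 0.965 FPKM in the ATOH8 library (median 0.209) and 0.0385 to 1.23 FPKM in the vector library (median 0.318). In FPKM without any scaling, ATOH8 had the lower value for 22 of the 30 and the higher for 8, and the median of the 30 ratios of ATOH8 to vector was 0.823. Among all 6444 genes with a mean below 1 FPKM, 48.8% were lower in the ATOH8 library and the median ratio was 1.02. The highest of these histone genes were HIST1H2BN (0.965 FPKM in ATOH8 and 0.791 in vector), HIST1H2BC and HIST1H4J (0.671 in ATOH8 and 0.550 in vector). The coding sequence of HIST1H4J is identical to that of HIST1H4K, so the split of reads between them is uncertain. Of the 12 genes in the vector file only, 10 were replication-dependent, led by HIST1H4A (0.316 FPKM), HIST1H2AJ (0.306 FPKM) and HIST1H4B (0.288 FPKM), and the other 2 were H2AFB2 and H2AFB3. The 2 genes in the ATOH8 file only, HIST3H3 and HIST1H2AD, were at 0.0593 and 0.117 FPKM. Over all genes the files were near balance, with 2058 gene identifiers in the ATOH8 file only and 2154 in the vector file only.

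Levels of replication-dependent genes were also laid against the annotated 3′ end. Of the 55 protein-coding ones, 23 have a transcript that runs at least 100 bases past the stem-loop, 8 end within 100 bases of it and 24 have no stem-loop in their annotated transcripts (median longest transcript 393 bases). In the first set, 9 of 22 genes measured in both libraries had a mean of at least 1 FPKM, with medians of 0.475 FPKM in ATOH8 and 0.721 FPKM in vector. In the second, 3 of 6 did, with medians of 2.56 FPKM in ATOH8 and 2.14 in vector. In the third, 3 of 16 did (HIST1H1C, HIST1H2BK and HIST1H2BJ), with medians of 0.0988 FPKM in ATOH8 and 0.318 in vector, and 15 of these 16 genes were lower as deposited in the ATOH8 library, all but HIST1H1C. In the first set 13 of 22 were lower and in the second 2 of 6. The genes of these sets with a mean below 1 FPKM are also among the 30 counted above, so the counts are not separate. Among all 18786 genes with a value in both files, at any FPKM, 59.3% were lower as deposited. Transcript length moved with these sets (medians 1694, 495.5 and 393 bases), its part in the levels was not tested, and the 100-base limit was chosen after the values were seen.

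**Figure D4:**
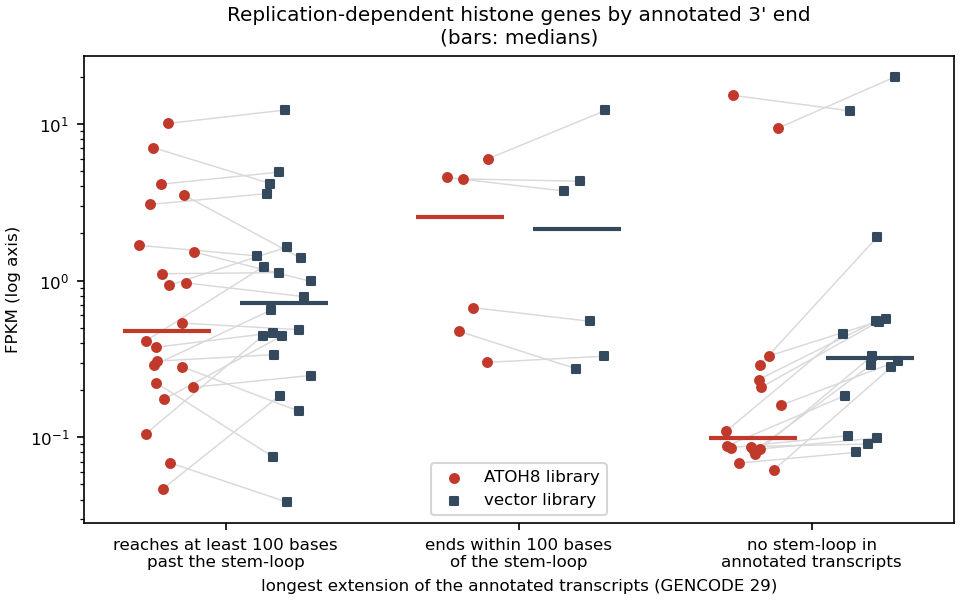
FPKM on a log axis of the replication-dependent protein-coding histone genes listed in both libraries, in 3 sets by how far their GENCODE 29 transcripts run past the stem-loop, with ATOH8 (circles) left of vector (squares), grey lines joining the values of a gene and bars at the medians. In the set without an annotated stem-loop the medians are 0.0988 FPKM in ATOH8 and 0.318 FPKM in vector, and 2 genes, HIST1H1C and HIST1H2BK, stand near or above 10 FPKM.

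A list of 35 gene symbols for histone gene transcription and histone mRNA processing had 33 measured members. It is not limited to histone-specific factors and holds cell cycle genes such as E2F1 (-1.18), CDK2 (-0.93), TFDP1 (-0.57) and CCNE1 (-0.14). Of the measured members, 27 lay below the median gene in ATOH8 (81.8%), against 47.0% of all tested genes. Of the 33, 7 passed 2-fold downward (21.2%) and 1 upward, and the median was -0.71, against 9.46% lower, 12.8% higher and a median of 0.06 over all tested genes. SLBP, which binds the stem-loop, was at 13.9 FPKM in ATOH8 and 34.9 FPKM in vector (-0.91). NPAT, the coactivator of histone gene transcription, was at 0.767 FPKM in ATOH8 and 2.80 in vector (-0.74). CASP8AP2, which encodes the processing factor FLASH, was at 0.437 FPKM in ATOH8 and 2.54 in vector (-0.94). All 3 were more than 2-fold lower as deposited and within 2-fold relative to the median gene, and the authors' deposited table marked them down. Its log2 ratios, without a pseudocount, were -1.33 for SLBP, -1.86 for NPAT and -2.54 for CASP8AP2. NPAT and CASP8AP2 are low, so the added 1 shrinks their folds, also those after the GC correction. After the GC correction SLBP stood at -1.13, NPAT (37.4% GC) at -0.08 and CASP8AP2 (37.1% GC) at -0.27. The largest differences were those of DHX9, an RNA helicase, at 26.2 FPKM in ATOH8 and 104 FPKM in vector (-1.60), of SRRT, which links the cap-binding complex to processing, at 14.6 FPKM in ATOH8 and 55.0 in vector (-1.49), of ERI1, the exonuclease that trims the stem-loop end, at 4.49 FPKM in ATOH8 and 17.0 in vector (-1.35), and of the cap-binding gene NCBP1 at 6.004 FPKM in ATOH8 and 20.4 in vector (-1.25). CTIF, a translation factor for cap-binding complexes, was the exception at 14.5 FPKM in ATOH8 and 4.42 FPKM in vector (1.88). The correction left DHX9 at -1.40, SRRT at -1.98 and CTIF at 1.35, and moved ERI1 to -0.81 and NCBP1 to -0.85. With it 9 of the list passed 2-fold downward and 1 upward, against 5.96% and 8.33% of all genes, and 4 of the 9 were among the 7 that passed without it.

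Histone chaperones carry and place histones, and 32 of the 40 listed and measured lay below the median gene in ATOH8, against 47.0% of all tested genes. Of the 40, 15 passed 2-fold downward (37.5%) and 0 upward, against 9.46% and 12.8% of all genes, and their median was -0.70. After the GC correction 14 passed downward, against 5.96% of all genes. Of these, 10 were among the 15, while ASF1A, MMS22L, NPM1, ANP32E and SET passed only without the correction and CHAF1B, IPO4, TONSL and HIRA only with it. With the correction DEK stood at -1.76, HAT1 at -1.33, HJURP at -1.84 and ANP32E at -0.95. DEK, a chromatin protein and H3 chaperone, was at 6.62 FPKM in ATOH8 and 45.5 FPKM in vector (-2.25). HAT1, which acetylates newly made H4, was at 10.3 FPKM in ATOH8 and 48.8 in vector (-1.78), and HJURP, the chaperone of the centromeric H3 CENP-A, at 11.9 FPKM in ATOH8 and 53.1 in vector (-1.71). ANP32E, which removes H2A.Z from nucleosomes, was at 11.1 FPKM in ATOH8 and 48.1 FPKM in vector (-1.66), and the nucleolin gene NCL at 79.95 FPKM in ATOH8 and 313 in vector (-1.60). NASP, which holds the soluble H3 and H4 reserve, was at 29.5 FPKM in ATOH8 and 98.4 in vector (-1.35). The replication-coupled subunits CHAF1A (3.94 FPKM in ATOH8 and 14.5 in vector, -1.29) and CHAF1B (3.54 in ATOH8 and 9.996 in vector, -0.92) were both more than 2-fold lower as deposited, whereas ASF1B stood at 8.57 FPKM in ATOH8 and 12.6 in vector (-0.15). Of the factors that place the replacement H3, HIRA was at 3.73 FPKM in ATOH8 and 8.79 in vector (-0.69, and -1.11 after the GC correction), DAXX at 11.1 FPKM in ATOH8 and 19.7 in vector (-0.41 and -0.79) and ATRX at 3.93 FPKM in ATOH8 and 11.3 in vector (-0.96, and -0.28 after the GC correction). The catalytic genes of the complexes that load H2A.Z, SRCAP (4.59 FPKM in ATOH8 and 5.50 in vector, 0.14) and EP400 (10.1 in ATOH8 and 9.04 in vector, 0.51), stood above the median gene, as did VPS72 (0.01), DMAP1 (0.13) and ZNHIT1 (0.50), although SRCAP (-0.32), VPS72 (-0.24) and DMAP1 (-0.05) lay below it after the GC correction, and all 3 were lower as deposited. Other subunits of these complexes stood below it, with YEATS4 at 8.48 FPKM in ATOH8 and 33.2 in vector (-1.49, and -1.02 after the GC correction) and ACTR6 at 9.70 FPKM in ATOH8 and 20.9 in vector (-0.67, and -0.17 after the GC correction). The authors' deposited table marked YEATS4 and ACTR6 down. Of the 40 chaperone genes, 19 were marked down and 0 up in the authors' deposited table, and of the processing list 11 were marked down and 1 up, against 14.7% and 5.16% of all tested genes. Both lists were drawn up with low values of DNA replication genes in the ATOH8 library already known, so they lend no independent support to that pattern.

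**Figure D5:**
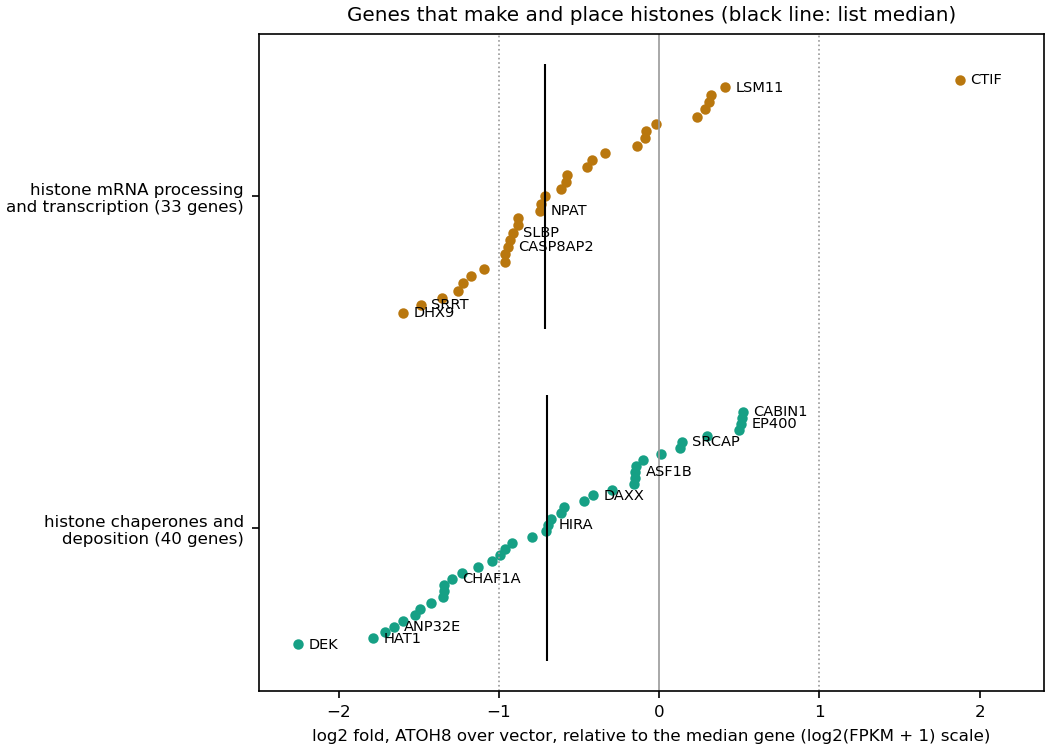
Log2 fold of ATOH8 over vector relative to the median gene for the 33 genes of histone transcription and mRNA processing (top) and the 40 histone chaperone and deposition genes (bottom), with black lines at the list medians and dotted lines at 2-fold. The medians lie at -0.71 and -0.70, and CTIF at 1.88 is the single gene past 2-fold on the high side.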

How the data were processed

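Cells were lysed in Trizol, and 1 library each was built from total RNA by Illumina's usual protocol, per the labels. Tools named in the submitters' processing notes are CASAVA, HISAT2 and Cufflinks 2.2.1, with genome hg38 (GRCh38), their roles unstated. Annotation release, strand setting, poly(A) selection and depth: not given in the sources used here. The authors deposited FPKM per gene, 1 file per library, and a table of their own comparison holding a log2 ratio, p-values and q-values, per the file headers. Left unused were 2 further columns of FPKM in that table, whose names fit neither sample. Its ratios run ATOH8 over vector: 2728 of 2728 genes with a value in both files had the same direction.

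Rows sharing a symbol were summed (18786 symbols in both files). Folds used a pseudocount of 1 and a mean FPKM of at least 1. With 1 library per group no test was run. Named were all histone genes passing that filter, those with the highest FPKM below it or in 1 file only, and list members with the largest folds or fixed by name. Members and lists were chosen with earlier results of these data known. GC content is that of each gene's longest GENCODE 29 transcript, and the correction subtracted a lowess curve (fraction 0.3, statsmodels 0.14.6). Transcript sequence missing from the annotation is not part of that GC content. Sequence identity is over aligned coding bases (Biopython 1.88). No protein sequences were used here. The fold procedure was tested on simulated data.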

Additional observations from a re-analysis of the deposited data

How the results depend on the processing

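No paired analysis was possible because each group has 1 library, and no library could be left out. As reported above, 2 replication-dependent genes passed 2-fold upward and 0 downward. The number higher was 0 with a pseudocount of 5 and with the fold as deposited, which keeps the added 1. It was 1 with a mean FPKM of at least 5, upper quartile scaling, TPM scaling or the GC correction. The number lower was 1 with a pseudocount of 0.1, TPM scaling or the GC correction, and 2 as deposited. Of variant genes, 1 higher and 1 lower above, the number higher was 0 as deposited, with the GC correction or without genes whose locus spans another gene, and the number lower was 2 as deposited, with TPM scaling or with the GC correction, and 0 without the genes whose locus spans another, which takes out H2AFZ itself and leaves 4 genes. For the processing list the number lower (7) was 11 with a pseudocount of 0.1, 2 with a pseudocount of 5, 17 as deposited, 16 with TPM scaling and 4 of 13 genes with a locus of their own, where 0 were higher. For chaperones the number lower (15 of 40) was 18 with a pseudocount of 0.1, 12 with a pseudocount of 5, 22 as deposited and 20 with TPM scaling. Among the 10 chaperone genes with a locus of their own it was 7. Leaving out pseudogenes, chosen after seeing the data, moved no count by over 1.5 times. List medians moved by less than 1.5-fold under each setting. The median of the replication-dependent genes still changed sign as deposited (-0.02), and that of the variant genes without the filter (0.08), with the GC correction (0.08) and without loci spanning another gene (0.01). Depth is unknown, so counting error at low FPKM could not be set.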

Other observations

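CENPA, which encodes the centromeric H3 variant CENP-A and lies outside the naming rule of the histone genes, was at 14.6 FPKM in the ATOH8 library and 38.8 FPKM in the vector library, with a relative log2 fold of -0.99, or -1.07 once corrected for GC. Its chaperone gene HJURP stood at -1.71. CENPA and H2AFZ were the pair of histone variants furthest below the median gene, and the replacement H3 genes H3F3A (-0.14) and H3F3B (0.08) lay near it. CENPA was chosen with results of these data known, and with 1 library per group no difference between these genes was tested.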
